A study of Homo sapiens with 112 samples.

Results

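The genes described here are the enzymes that make and turn over polyamines, with the proteins that regulate the first of those enzymes. They are ODC1, AMD1, SRM, SMS, SAT1, PAOX, SMOX, AZIN1, OAZ1 and OAZ2, taken by gene symbol as 10 of the 58684 rows of the gene count table. Their transcripts were measured by RNA-seq in VCaP and LAPC4, 2 established androgen-responsive human prostate cancer cell lines. VCaP cells carry a gene fusion that puts ERG under an androgen-driven promoter, and an amplified androgen receptor gene. All cells were depleted of hormone in charcoal-stripped serum and then given vehicle (DMSO), R1881 at 1 nM, or the same R1881 together with darolutamide at 500 nM (low dose) or 2 µM (high dose), for 8 or 22 h. R1881 is a synthetic androgen and darolutamide an antagonist of the androgen receptor, and none of the groups had darolutamide without R1881. In the order DMSO, R1881, low dose and high dose, VCaP had 10, 10, 4 and 5 libraries at 8 h and 8, 9, 4 and 5 at 22 h. LAPC4 had 10, 10, 5 and 5 libraries at 8 h and 7, 10, 5 and 5 at 22 h. The methods call the libraries of a condition biological replicates but do not say what was repeated, and the groups held 4 to 10 libraries, so not every group has the number that the methods give. No label ties a library to a culture or day, so the p-values measure the spread between these libraries, which may be technical in part.

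Polyamines are small, positively charged molecules that bind nucleic acids and are needed for growth. Ornithine decarboxylase (ODC1) makes putrescine, and AMD1 decarboxylates S-adenosylmethionine to give the aminopropyl donor that SRM uses to make spermidine and SMS uses to make spermine. Turnover starts with SAT1, which acetylates spermidine and spermine for export or for oxidation by PAOX, while SMOX oxidises spermine directly. Antizymes (OAZ1, OAZ2) bind ornithine decarboxylase and send it to the proteasome, and the antizyme inhibitor AZIN1 binds antizyme in its place. The prostate is known for making large amounts of polyamines and for secreting spermine.

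The stretches just before the start site are shown for ODC1, SMS and SAT1, the members with the largest responses to R1881 at 22 h, and for SRM, the synthase whose response differed from theirs. Each is the 250 bases before the RefSeq gene start (GRCh38.p14), read 5′ to 3′ on the gene's strand. ODC1 lies on the minus strand (chr2:10448328-10448577), SMS and SAT1 on the plus strand (chrX:21940459-21940708 and chrX:23782923-23783172) and SRM on the minus strand (chr1:11060019-11060268). Capitals mark the E-box CACGTG, which reads the same on both strands.
ODC1: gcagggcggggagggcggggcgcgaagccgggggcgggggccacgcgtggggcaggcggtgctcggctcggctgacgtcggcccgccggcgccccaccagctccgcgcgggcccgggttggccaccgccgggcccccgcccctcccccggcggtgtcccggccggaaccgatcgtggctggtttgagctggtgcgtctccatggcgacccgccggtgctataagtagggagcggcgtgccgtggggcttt
SMS: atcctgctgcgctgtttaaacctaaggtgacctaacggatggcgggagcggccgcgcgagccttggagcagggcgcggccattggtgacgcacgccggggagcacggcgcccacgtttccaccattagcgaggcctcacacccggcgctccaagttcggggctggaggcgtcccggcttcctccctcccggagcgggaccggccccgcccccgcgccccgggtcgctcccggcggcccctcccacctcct
SAT1: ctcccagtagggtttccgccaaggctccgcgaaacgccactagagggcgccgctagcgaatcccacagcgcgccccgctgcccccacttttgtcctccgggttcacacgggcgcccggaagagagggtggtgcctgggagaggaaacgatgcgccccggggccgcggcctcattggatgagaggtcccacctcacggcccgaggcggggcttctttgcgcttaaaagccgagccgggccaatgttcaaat
SRM: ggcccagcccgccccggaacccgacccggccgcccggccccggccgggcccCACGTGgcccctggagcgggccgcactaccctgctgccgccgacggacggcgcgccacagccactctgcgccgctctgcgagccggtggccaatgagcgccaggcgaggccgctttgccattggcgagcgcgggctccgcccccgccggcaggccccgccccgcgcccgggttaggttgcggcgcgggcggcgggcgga
The 4 stretches were 78.8%, 72.8%, 66.4% and 82% G or C, in the order shown. Of the 10 genes 7 had an entry in the promoter table, and PAOX, SMOX and AZIN1 had none. CACGTG was found in 1 of the 7, SRM, and in 6.34% of 35116 promoters of the same length. AGAACA, the hexamer that the androgen receptor recognises (searched on both strands, as AGAACA and TGTTCT), was found in 0 of the 7 and in 12.4% of all promoters. These are matches of letters in a short window and say nothing of binding.

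The 112 libraries held 12188455 to 25201678 counted reads, with a median of 20144050.5. Levels are CPM, counts brought to a common library size, with sizes scaled by the trimmed mean of M values (TMM), and changes are log2 fold changes ± SE from edgeR's quasi-likelihood test. A gene is called where its Benjamini-Hochberg adjusted p over all tested genes was under 0.05, and all 10 genes were among the 19266 tested in VCaP and the 18204 tested in LAPC4. FKBP5, a chaperone induced by androgen, rose with R1881 at 22 h by 5.49 ± 0.041 in VCaP and by 1.36 ± 0.037 in LAPC4. ERG had 1578 to 21554 reads in VCaP libraries and 0 to 1 in LAPC4 libraries. Of the luminal markers, HOXB13, KRT8 and KRT18 were read in every library of both lines, and KLK2 had 32597 to 186961 reads in VCaP but 54 to 715 in LAPC4. PTPRC, PECAM1 and TP63, markers of leukocytes, endothelium and basal cells, had at most 9 reads in any library. COL1A1, of fibroblasts, had at most 40 reads, and KRT5, of basal cells, had 0 in VCaP and 6 to 27 in LAPC4. TMPRSS2, also luminal, had 779 to 41561 reads in VCaP and 1657 to 3936 in LAPC4.

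ODC1 (chromosome 2, 10439968-10448327, minus strand, GRCh38), the entry enzyme, had the largest R1881 change of the 10 genes in VCaP at 22 h; at 8 h SMS and SMOX rose more. In VCaP at 22 h its level was 234 to 251 CPM (median 237) in the DMSO libraries and 2073 to 2348 CPM (median 2118) in the R1881 libraries. With 500 nM darolutamide the 4 libraries held 739, 815, 792 and 766 CPM, and with 2 µM the 5 libraries held 449, 434, 396, 453 and 458 CPM. In bulk RNA, a change in the number of cells with a transcript and a change per cell cannot be told apart. The 4 groups did not overlap, and their order from low to high was DMSO, 2 µM, 500 nM and R1881 alone. R1881 raised ODC1 by 3.17 ± 0.036, which is 8.97-fold (adjusted p = 2.555e-56, edgeR). From the R1881 level it fell by 1.47 ± 0.043 with 500 nM and by 2.30 ± 0.041 with 2 µM darolutamide, where it was still 0.86 ± 0.038 above DMSO (adjusted p = 2.397e-27, edgeR).

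At 8 h the order of the VCaP groups was the same for ODC1 and the range was narrower. DMSO libraries held 237 to 275 CPM (median 258) and R1881 libraries 655 to 786 CPM (median 703). With 500 nM darolutamide the libraries held 507, 501, 499 and 508 CPM, and the 2 µM libraries 355, 363, 324, 362 and 365 CPM. Again the groups did not overlap. The rise with R1881 was 1.45 ± 0.030 at 8 h, and the effect was 1.72 ± 0.045 larger at 22 h (adjusted p = 8.502e-38, edgeR interaction). In LAPC4 ODC1 ranged over 537 to 647 CPM in the 57 libraries with group means of 560.3 to 608 CPM. The LAPC4 groups overlapped, and the R1881 difference of 0.041 ± 0.026 at 22 h had a 95% interval of -0.0102 to 0.0915. With each library's slope of level on GC content as a covariate, that difference was 0.059 and called (adjusted p = 0.005726, edgeR). In vehicle at 22 h ODC1 stood at 241 ± 7.04 CPM (SD, n = 8) in VCaP and 560.3 ± 18.6 CPM (SD, n = 7) in LAPC4.

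SMS (chromosome X, 21940709-21994837, plus strand), which makes spermine, had the same order of groups as ODC1. At 22 h in VCaP it was 220.4 to 253 CPM (median 228) with DMSO and 1350 to 1533 CPM (median 1423) with R1881. At the low dose the libraries held 762, 902, 810.1 and 829 CPM and the 2 µM libraries 428, 448, 425, 467 and 458 CPM. No group overlapped another. R1881 raised SMS by 2.61 ± 0.036, or 6.12-fold (adjusted p = 1.586e-52, edgeR), and the falls from there were 0.79 ± 0.042 with 500 nM and 1.68 ± 0.041 with 2 µM darolutamide. At 2 µM SMS remained 0.94 ± 0.038 above DMSO.

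Much of the SMS response was already present at 8 h. DMSO libraries held 203 to 226 CPM (median 214) and R1881 libraries 855 to 1022 CPM (median 968), a rise of 2.15 ± 0.032. The effect was 0.46 ± 0.045 larger at 22 h (adjusted p = 3.45e-13, edgeR interaction). The 500 nM libraries held 781, 772, 794 and 809.8 CPM and the 2 µM libraries 459.6, 494, 454, 504 and 472 CPM, which was 1.15 ± 0.036 above DMSO. These groups were also apart from each other. In LAPC4 SMS lay at 53.1 to 62.9 CPM over all libraries, and the R1881 differences of 0.082 ± 0.030 at 22 h (adjusted p = 0.06017, edgeR) and -0.040 ± 0.027 at 8 h were not called. The 22 h difference was called without replicate 1 (0.096, adjusted p = 0.04512, edgeR) and without replicate 6 (0.10, adjusted p = 0.01987) of every group. It was also called with the GC slope as a covariate (0.099, adjusted p = 0.001466, edgeR).

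AMD1 (chromosome 6, 110874770-110898879, plus strand), which supplies the aminopropyl donor, was called for R1881 against DMSO in both lines and at both times. In VCaP at 22 h it was 852 to 1018 CPM (median 898) with DMSO and 1326 to 1697 CPM (median 1456) with R1881. With 500 nM darolutamide the libraries held 1209, 1324, 1322 and 1323 CPM and the 2 µM libraries 1022, 1059, 992, 1094 and 1120 CPM. The R1881 libraries were above all others, and the 2 µM libraries overlapped the DMSO libraries. R1881 raised AMD1 by 0.70 ± 0.042, or 1.62-fold, and 2 µM darolutamide lowered it by 0.50 ± 0.049, to 0.20 ± 0.049 above DMSO (adjusted p = 0.000351, edgeR). At 8 h the DMSO libraries held 737 to 851 CPM (median 802) and the R1881 libraries 981 to 1237 CPM (median 1128). There it rose by 0.48 ± 0.038 with R1881 and fell from there by 0.20 ± 0.051 with 500 nM and by 0.31 ± 0.047 with 2 µM. The 8 h level with 2 µM was 0.16 ± 0.047 above DMSO, and this call was lost without replicate 2 (0.12) or replicate 4 (0.12) of every group.

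The AMD1 differences in LAPC4 had the same signs and were smaller. At 22 h it was 259 to 300.3 CPM (median 272) with DMSO and 292 to 338 CPM (median 307) with R1881, groups that overlapped, and it rose by 0.16 ± 0.034 (adjusted p = 0.0002521, edgeR). At the low dose the libraries held 264, 281, 285, 284 and 264 CPM and the 2 µM libraries 258, 275, 247, 288 and 244 CPM. Both sets were below every R1881 library, with falls of 0.17 ± 0.038 and 0.24 ± 0.038 (adjusted p = 0.002062 and 3.319e-06, edgeR). At 8 h R1881 raised AMD1 by 0.14 ± 0.031 (adjusted p = 0.003607, edgeR), while the darolutamide differences of -0.053 ± 0.038 and -0.091 ± 0.038 were not called. The rises in LAPC4 were not called in some subsets of the controls. With DMSO and R1881 replicates 1 to 5 alone the 8 h value was 0.090 (adjusted p = 0.5962, edgeR), and with replicates 6 and above alone the 22 h value was 0.15 (adjusted p = 0.1902, edgeR).

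SRM (chromosome 1, 11054584-11060020, minus strand), which makes spermidine, did not share the pattern of ODC1, SMS and AMD1. At 22 h in VCaP it was 29.4 to 49.6 CPM (median 41.1) with DMSO and 45.4 to 78.7 CPM (median 63.3) with R1881, groups that overlapped, and it rose by 0.64 ± 0.12 (adjusted p = 1.758e-06, edgeR). The 500 nM libraries held 73.3, 65, 66.8 and 77 CPM and the 2 µM libraries 84.2, 78.5, 93.1, 68.8 and 69.6 CPM. The mean was therefore highest with 2 µM darolutamide, 0.32 ± 0.13 above R1881 (adjusted p = 0.02239, edgeR) and 0.96 ± 0.13 above DMSO (adjusted p = 6.274e-09, edgeR). The difference from R1881 was not called without replicate 1 (0.28) or replicate 3 (0.17) of every group, nor with control replicates 6 and above alone (0.21, adjusted p = 0.1629, edgeR).

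At 8 h SRM was 33.6 to 64.4 CPM (median 54.6) with DMSO and 32 to 53.9 CPM (median 41.1) with R1881 in VCaP, a fall of 0.27 ± 0.11 (adjusted p = 0.02189, edgeR). This fall was not called without replicate 6 of every group (-0.20) or with control replicates 1 to 5 alone (-0.20). Between the times the R1881 effect on SRM differed by 0.91 ± 0.16 (adjusted p = 1.269e-06, edgeR interaction). In LAPC4 SRM ranged over 20.6 to 50.3 CPM, and no difference between treatments was called in the fit by group alone, the R1881 difference at 22 h being 0.32 ± 0.14 (adjusted p = 0.1377, edgeR).

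SRM, OAZ1 and PAOX are rich in GC (65.1%, 63.0% and 62.8% of exon bases), and the libraries differed in how level related to GC content. The slope of log2 CPM on the GC fraction of genes had a mean of -5.73 ± 1.40 (SD, n = 8) in VCaP DMSO and -4.55 ± 1.26 (SD, n = 9) in VCaP R1881 libraries at 22 h. With the slope of each library as a covariate, the SRM differences in VCaP were 0.41 for R1881 against DMSO at 22 h, 0.38 for 2 µM against R1881 at 22 h and -0.20 for R1881 against DMSO at 8 h. In LAPC4 the same covariate brought SRM to 0.19 with R1881 at 22 h and -0.35 with 2 µM against R1881 (adjusted p = 6.474e-05 and 8.223e-10, edgeR).

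**Figure D1:**
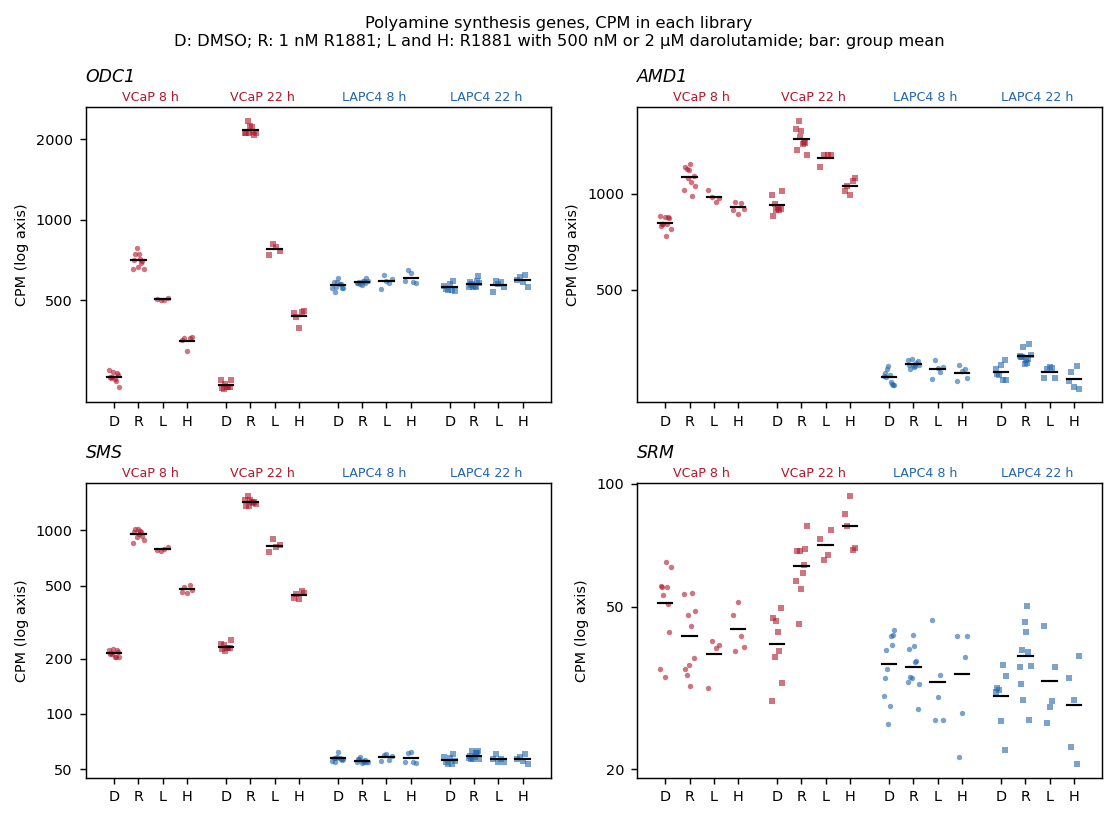
CPM of the synthesis genes ODC1, AMD1, SRM and SMS in each library (log axis), by line, time and treatment, with the group means. ODC1 in VCaP at 22 h stood at 234 to 251 CPM with DMSO and 2073 to 2348 CPM with R1881, while in LAPC4 all libraries lay within 537 to 647 CPM.

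SAT1 (chromosome X, 23783173-23786210, plus strand), the acetyltransferase that opens polyamine turnover, had the largest fall with darolutamide of the 10 genes in VCaP at 22 h; with 2 µM at 8 h SMOX, SMS and ODC1 fell more. In VCaP at 22 h it was 44 to 51.6 CPM (median 48.8) with DMSO and 289.6 to 339 CPM (median 310.1) with R1881, a rise of 2.68 ± 0.042 or 6.4-fold (adjusted p = 7.683e-50, edgeR). With 500 nM darolutamide the libraries held 65.8, 83.1, 72 and 74.3 CPM and the 2 µM libraries 31.5, 34.1, 29.3, 36.9 and 35.5 CPM. All 4 groups were apart, with the 2 µM libraries below every DMSO library. From R1881 the falls were 2.07 ± 0.053 with 500 nM and 3.21 ± 0.052 with 2 µM, and at 2 µM SAT1 was lower than in DMSO by 0.53 ± 0.049 (adjusted p = 4.007e-14, edgeR).

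At 8 h the 2 µM libraries lay on the other side of DMSO. SAT1 was 38.8 to 42.7 CPM (median 39.9) with DMSO, 78.4 to 97 CPM (median 89.5) with R1881, 69.8, 63.6, 71 and 66.8 CPM with 500 nM and 47.6, 46.8, 46.7, 46 and 48.9 CPM with 2 µM darolutamide. The groups did not overlap, and the 2 µM level was 0.22 ± 0.045 above DMSO (adjusted p = 8.689e-05, edgeR). R1881 raised SAT1 by 1.14 ± 0.037 at 8 h, and the effect was 1.54 ± 0.054 larger at 22 h (adjusted p = 9.969e-32, edgeR interaction). In LAPC4 the level was 13.8 to 20.4 CPM over all libraries. There SAT1 was 0.22 ± 0.060 higher with 500 nM darolutamide than with R1881 at 22 h, at 18.1, 19.3, 18, 20.4 and 18.2 CPM against 14.6 to 17.6 CPM (median 16.2) (adjusted p = 0.0131, edgeR). That call was lost without replicate 4 of every group (0.20) and with control replicates 6 and above alone (0.19), and the R1881 difference of -0.13 ± 0.054 was called without replicate 7 (-0.17). The 2 µM difference from R1881 at 22 h, 0.16 ± 0.060, was called without replicate 5 (0.20).

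SMOX (chromosome 20, 4120980-4187747, plus strand), the spermine oxidase, had its larger response at the earlier time. In VCaP at 8 h it was 5.64 to 10.9 CPM (median 7.96) with DMSO and 26.8 to 49.4 CPM (median 34.7) with R1881, a rise of 2.15 ± 0.12 or 4.42-fold (adjusted p = 4.534e-23, edgeR). At the low dose the libraries held 15.5, 20.9, 22 and 23.1 CPM and the 2 µM libraries 13.4, 10.9, 15, 10.8 and 10.7 CPM, falls from R1881 of 0.83 ± 0.15 and 1.57 ± 0.15. The R1881 libraries were above all others, and the 2 µM and DMSO libraries overlapped. At 22 h SMOX was 4.04 to 8.76 CPM (median 6.95) with DMSO and 8.76 to 14.7 CPM (median 12.3) with R1881, a rise of 0.88 ± 0.14, and the R1881 effect was thus 1.26 ± 0.18 smaller than at 8 h (adjusted p = 3.457e-08, edgeR interaction). The 22 h fall with 500 nM (0.47 ± 0.17) was not called without replicate 2 (-0.39) or replicate 4 (-0.44) of every group. Total-count scaling (-0.37) and control replicates 1 to 5 alone (-0.39) also lost that call. With replicate number added to the model as a block, the 8 h difference with 500 nM was -0.79 and not called (adjusted p = 0.05479, edgeR).

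In LAPC4 SMOX ranged over 7.97 to 20.9 CPM and rose with R1881 at 22 h by 0.38 ± 0.13, in groups that overlapped (adjusted p = 0.03669, edgeR). This call was lost in 6 of the 10 fits that left out 1 replicate number (without replicate 1, 3, 4, 6, 7 or 10 of every group), with values from 0.30 to 0.39. It was also lost with no read filter (0.37) and with control replicates 1 to 5 (0.30) or 6 and above (0.50) alone.

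PAOX (chromosome 10, 133379261-133391694, plus strand), the oxidase of acetylated polyamines, was scarce in VCaP, with 6 to 48 reads per library. At 22 h it was 0.288 to 0.944 CPM (median 0.558) with DMSO and 1.11 to 1.93 CPM (median 1.54) with R1881, groups that did not overlap, and it rose by 1.39 ± 0.22 (adjusted p = 1.151e-07, edgeR). The 500 nM libraries held 0.823, 0.913, 0.814 and 0.609 CPM and the 2 µM libraries 0.674, 0.553, 0.858, 1.22 and 0.656 CPM, falls from R1881 of 0.94 ± 0.26 and 0.94 ± 0.23. At 8 h the rise with R1881 was 0.71 ± 0.19, not called with control replicates 6 and above alone (0.50), and the fall with 2 µM 0.59 ± 0.23. That fall was not called without replicate 2, 4, 5 or 7 of every group, with values from -0.52 to -0.43. The time difference of 0.68 ± 0.30 in the R1881 effect was not called without replicate 1, 2, 6, 8, 9 or 10 (lowest 0.60), nor with the GC covariate (0.36). Nor was it called with control replicates 1 to 5 alone (0.38) or with no read filter (0.69). The replicate block, without (0.57) and with the GC covariate (0.34), lost this call too. In LAPC4 PAOX was more abundant, at 2.68 to 6.46 CPM, and no difference was called.

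**Figure D2:**
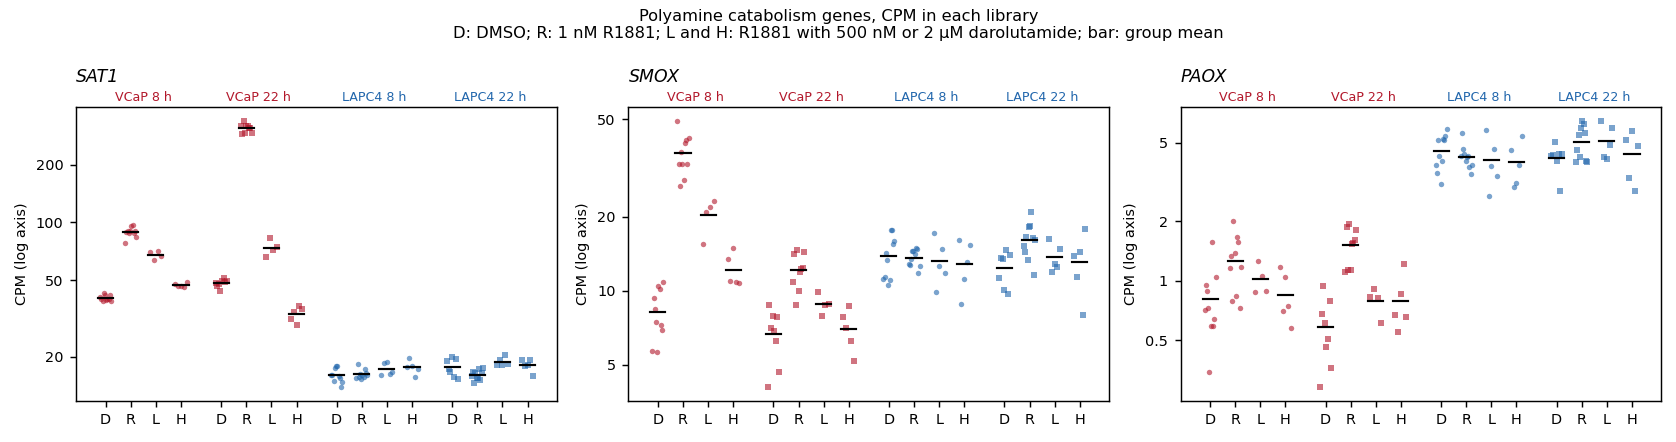
CPM of the turnover genes SAT1, PAOX and SMOX in each library (log axis), by line, time and treatment, with the group means. SAT1 in VCaP at 22 h reached 289.6 to 339 CPM with R1881 against 44 to 51.6 CPM with DMSO, and SMOX was highest with R1881 at 8 h.

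In VCaP the R1881 changes of AZIN1, OAZ1 and OAZ2 were within 0.48 of 0 (log2) at both times, and in LAPC4 OAZ2 was the one of the 3 called between treatments, at 22 h. AZIN1, the antizyme inhibitor, fell with R1881 in VCaP at 22 h, from 298 to 351 CPM (median 314) to 237 to 282 CPM (median 258), by 0.32 ± 0.040 (adjusted p = 4.906e-10, edgeR). With 500 nM darolutamide the libraries held 300.3, 309.6, 309.6 and 292 CPM and the 2 µM libraries 349, 350.5, 346, 364 and 382 CPM. The R1881 libraries were below all others, and the 2 µM level was 0.48 ± 0.046 above R1881 and 0.16 ± 0.047 above DMSO (adjusted p = 8.598e-14 and 0.002659, edgeR). At 8 h the difference between R1881 and DMSO was 0.11 ± 0.037 for AZIN1 (adjusted p = 0.0088, edgeR) but -0.036 with total-count scaling, so that its direction depends on the scaling. The excess over DMSO at 2 µM and 22 h was 0.13 and not called with control replicates 6 and above alone. This 8 h call was also lost without replicate 2 (0.056), 3 (0.071), 4 (0.069) or 6 (0.053) of every group. In LAPC4 AZIN1 was 355 to 426 CPM, with no call between treatments.

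OAZ2 (chromosome 15, 64687573-64703281, minus strand), an antizyme, responded to R1881 in VCaP at 8 h. It was 87.2 to 109.5 CPM (median 99.1) with DMSO and 110.4 to 129 CPM (median 119) with R1881, a rise of 0.27 ± 0.030 (adjusted p = 7.539e-12, edgeR). At 22 h the levels were 108 to 121 CPM (median 115) and 107 to 118 CPM (median 110.4), and the difference of -0.051 ± 0.032 was not called (adjusted p = 0.1479, edgeR) but was called with total-count scaling (-0.16). The 2 µM libraries at 22 h held 96.5, 103, 90.8, 102 and 103 CPM, 0.16 ± 0.037 below R1881 and 0.21 ± 0.038 below DMSO; the former was -0.070 and not called with total-count scaling. At 8 h OAZ2 was called with 500 nM against R1881 (-0.098 ± 0.039) only without replicate 8 (-0.11) among the fits that left out a replicate number, and with 2 µM against DMSO (0.081 ± 0.036) only without replicate 7 (0.10). In LAPC4 at 22 h OAZ2 fell with R1881 by 0.12 ± 0.025, from 143 to 152 CPM (median 147) to 129 to 141 CPM (median 135), in groups that did not overlap, and 2 µM darolutamide raised it by 0.13 ± 0.028 (adjusted p = 0.0002685 and 0.000504, edgeR). The LAPC4 fall was -0.095 and not called with control replicates 6 and above alone (adjusted p = 0.1631, edgeR).

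OAZ1 (chromosome 19, 2269509-2273490, plus strand), the other antizyme, varied more between libraries of a group. At 22 h in VCaP it was 131 to 211 CPM (median 188) with DMSO and 189.5 to 299 CPM (median 251) with R1881, overlapping groups, and rose by 0.48 ± 0.091 (adjusted p = 5.423e-06, edgeR). At the low dose the libraries held 250.1, 218, 216 and 237 CPM and the 2 µM libraries 240.3, 232, 260.5, 208 and 189 CPM. Its difference of -0.18 ± 0.10 between 2 µM and R1881 was not called, but it was without replicate 3 of every group (-0.32) and with the GC covariate (-0.14). The excess over DMSO at 2 µM, 0.30 ± 0.10, was not called without replicate 1 (0.22) or 3 (0.22). At 8 h the R1881 difference was 0.14 ± 0.083 and not called (adjusted p = 0.1234, edgeR). With the GC covariate that 8 h difference was 0.195 and called (adjusted p = 9.462e-09, edgeR). The 8 h difference between 2 µM and R1881 was also called with the covariate (-0.14, adjusted p = 0.0005136, edgeR), but not without it (-0.18 ± 0.10). In LAPC4 OAZ1 ranged over 301 to 556 CPM with no call between treatments, and its R1881 difference at 22 h was 0.036 ± 0.12, which turned to -0.070 with the GC covariate.

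**Figure D3:**
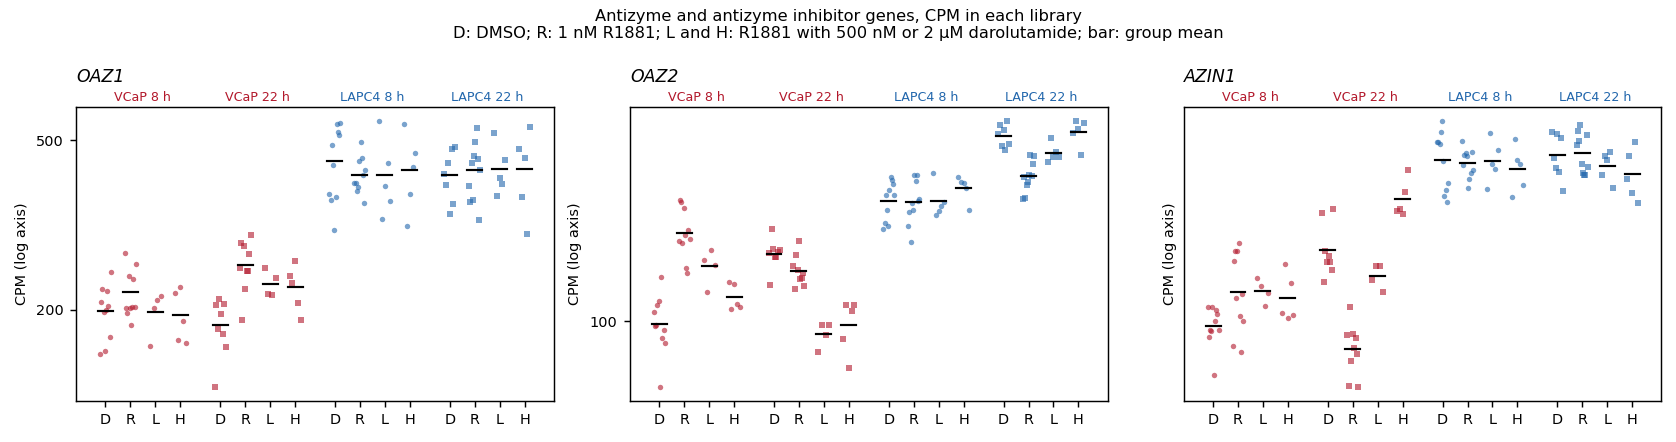
CPM of the antizymes OAZ1 and OAZ2 and the antizyme inhibitor AZIN1 in each library (log axis), by line, time and treatment, with the group means. AZIN1 in VCaP at 22 h was 298 to 351 CPM with DMSO and 237 to 282 CPM with R1881.

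Over the 10 genes, R1881 against DMSO in VCaP called 9 at 22 h, 8 higher and 1 lower (AZIN1), where 77.4% of all tested genes were called, 37.4% higher and 40% lower. At 8 h it called 9, 8 higher and 1 lower (SRM), where 66.9% of all genes were called, 32.8% higher and 34.1% lower. The median log2 fold change over the 10 genes was 0.79 at 22 h and 0.59 at 8 h, beside -0.034 and -0.035 over all tested genes. With total-count scaling the median over all genes moved to -0.14 and -0.18, and the share of all calls that were higher moved from 49.1% to 34% at 8 h.

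With 2 µM darolutamide against R1881, 9 members were called in VCaP at 22 h, 7 lower and 2 higher (SRM and AZIN1), beside 66.9% of all genes (36.1% higher, 30.8% lower). At 8 h 7 were called, all lower, beside 52.1% of all genes (26% higher, 26.2% lower). The medians over the members were -0.65 and -0.45, beside 0.058 and 0.014 over all genes. With total-count scaling the latter became 0.15 and 0.12, and AZIN1 at 8 h went from -0.021 ± 0.045 to a called 0.091. The share of calls that were higher at 8 h went from 49.8% to 67.1%. With 500 nM against R1881, 8 members were called at 22 h and 5 at 8 h, beside 53% and 30.6% of all genes. These comparisons use the same R1881 libraries as R1881 against DMSO, and a high or low R1881 mean enters both with opposite sign.

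The difference between the 2 doses does not involve the libraries with R1881 alone. In VCaP at 22 h ODC1 (-0.83 ± 0.044), AMD1 (-0.29 ± 0.057), SMS (-0.89 ± 0.045) and SAT1 (-1.14 ± 0.055) were lower and AZIN1 (0.24 ± 0.056) higher with 2 µM than with 500 nM, 5 members beside 20.2% of all genes. At 8 h ODC1 (-0.51 ± 0.045), SMS (-0.73 ± 0.045), SAT1 (-0.52 ± 0.055) and SMOX (-0.74 ± 0.17) were lower, 4 members beside 17.6% of all genes. Against DMSO, the 2 µM group differed in 8 members at 22 h, beside 59% of all genes. ODC1, AMD1, SRM, SMS, AZIN1 and OAZ1 were higher and SAT1 and OAZ2 lower, while PAOX (0.45 ± 0.27) and SMOX (0.078 ± 0.17) were not called. At 8 h ODC1 (0.45 ± 0.036), AMD1, SMS, SAT1 and SMOX (0.57 ± 0.15) were higher, 5 members beside 27.4% of all genes.

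**Figure D4:**
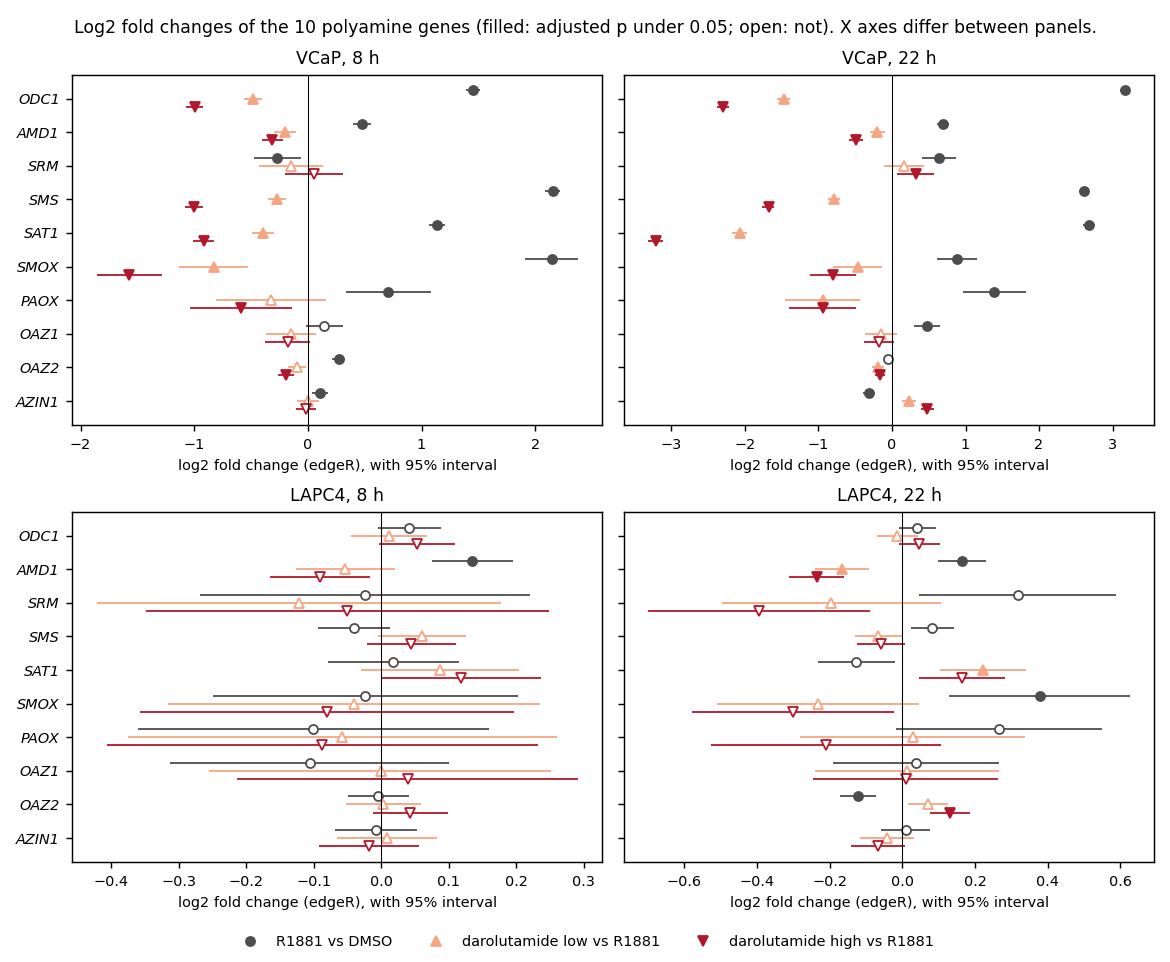
Log2 fold changes of the 10 genes with 95% intervals for R1881 against DMSO and for 500 nM and 2 µM darolutamide against R1881, by line and time; filled symbols are called (adjusted p under 0.05), and the x axes differ between panels. At 22 h in VCaP the R1881 changes ran from -0.32 ± 0.040 (AZIN1) to 3.17 ± 0.036 (ODC1), and in LAPC4 AMD1 was the member called with R1881 at both times.

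The R1881 effect differed between 22 h and 8 h for all 10 members in VCaP, PAOX with the exceptions given above, beside 60.4% of all genes. The effect was higher at 22 h for ODC1, AMD1, SRM, SMS, SAT1, PAOX and OAZ1, and lower for SMOX, AZIN1 (-0.42 ± 0.055) and OAZ2 (-0.32 ± 0.044). The OAZ1 value of 0.33 ± 0.12 was 0.19 and not called with control replicates 1 to 5 alone, and the AMD1 value of 0.22 ± 0.057 was 0.16 and not called with replicates 6 and above alone. In vehicle alone 7 members differed between 22 h and 8 h in VCaP, beside 29.8% of all genes, from -0.34 ± 0.11 (SRM) to 0.26 ± 0.040 (SAT1). The SRM call was lost without replicate 6 (-0.29) or 8 (-0.30), and SMOX (-0.31 ± 0.14) was called without replicate 5 (-0.37). With control replicates 1 to 5 alone SRM (-0.22) and SMS (0.067) were not called. With replicates 6 and above alone ODC1 (-0.089) was not called and SMOX (-0.57) was.

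In LAPC4 few members were called. R1881 against DMSO called 3 at 22 h (AMD1 and SMOX higher, OAZ2 lower), where 13.3% of all genes were called, 6.83% higher and 6.44% lower. At 8 h it called 1 (AMD1, higher), where 2.64% were called, 1.75% higher and 0.895% lower. The members' medians were 0.061 and -0.016, beside 0.0067 and -0.015 over all genes. With 2 µM against R1881 2 were called at 22 h (AMD1 lower, OAZ2 higher), beside 10.5% of all genes (5% higher, 5.45% lower), and with 500 nM 2 (AMD1 lower, SAT1 higher), beside 5.89%.

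At 8 h edgeR called 0 members in LAPC4 with 2 µM against R1881, beside 1.54% of all genes (0.467% higher, 1.08% lower), and 0 with 500 nM, beside 0.626%; 1 and 0 members had an unadjusted p under 0.05. It called 0 between the doses at 22 h and 8 h, beside 0.258% and 0.0275% of all genes, with 0 and 0 members at an unadjusted p under 0.05. Between 2 µM and DMSO it called 0 at 22 h and 8 h, beside 0.0165% and 0.011%, with 1 (ODC1) and 2 (ODC1 and SAT1) at an unadjusted p under 0.05. DESeq2 called 0 members in each of these 6 comparisons. The R1881 effect differed between times in 1 member of LAPC4, OAZ2 (-0.12 ± 0.034, adjusted p = 0.04054, edgeR interaction), beside 3.21% of all genes, a call lost without replicate 1, 2, 4, 6 or 8 of every group (-0.12 to -0.10). In LAPC4 vehicle 1 member, OAZ2 (0.19 ± 0.025), differed between 22 h and 8 h, beside 22.1% of all genes. Without replicate 5 of every group AMD1 (0.096) and SAT1 (0.19) were called there too, and without replicate 7 SAT1 (0.16).

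The lines were compared in a joint fit over 16578 genes. At 22 h the R1881 effect of 8 members differed between VCaP and LAPC4, beside 68.5% of all genes. The differences (VCaP minus LAPC4) were largest for ODC1 (3.07 ± 0.049), SAT1 (2.75 ± 0.071) and SMS (2.47 ± 0.050), followed by PAOX (1.07 ± 0.26), AMD1 (0.47 ± 0.061), SMOX (0.45 ± 0.18), OAZ1 (0.38 ± 0.14) and AZIN1 (-0.38 ± 0.060). SRM (0.27 ± 0.17) and OAZ2 (0.013 ± 0.041) were not called. The SMOX difference was not called without replicate 1 (0.40), 8 (0.39) or 9 (0.37), and the SMOX and OAZ1 differences were not called with either set of control replicates (1 to 5, or 6 and above) alone. At 8 h 7 members differed, beside 58.5% of all genes: SMS (2.11 ± 0.046), SMOX (2.08 ± 0.16), ODC1 (1.32 ± 0.044), SAT1 (1.04 ± 0.065), PAOX (0.73 ± 0.23), AMD1 (0.26 ± 0.055) and OAZ2 (0.19 ± 0.037). The PAOX difference at 8 h was not called with control replicates 1 to 5 alone (0.61). SRM (-0.33 ± 0.16) was called there without replicate 1 (-0.41), 8 (-0.38) or 9 (-0.39).

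Only the DMSO and R1881 groups held libraries numbered above 5. Within treatment and time, these higher-numbered control libraries differed from those numbered 1 to 5 in 20.5% of all genes in LAPC4, AZIN1 (-0.095 ± 0.018) and OAZ2 (0.068 ± 0.013) among them. In VCaP edgeR called 0% of all genes, with 885 of 19266 at an unadjusted p under 0.05 (OAZ2 of the members), and DESeq2 called 0. What the numbers stand for is not given in the sources used here, and their part in the AZIN1 and OAZ2 differences was not tested beyond the fits with either set of the controls.

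Per kilobase of the main transcript, the members can be ranked against each other, but the order depends on the length used. Counts are per gene, and the joined exons of all transcripts are longer by unequal amounts. They span 10193 bases against 3423 in the main transcript for AMD1, and 2130 against 1703 for SMS. The ranks below hold for the main transcript alone and were not corrected for GC content. In VCaP vehicle at 22 h AMD1 led with 269 ± 16.4 CPM per kb (SD, n = 8), followed by OAZ1 (159.9 ± 23.5), SMS (136 ± 6.19), ODC1 (97.2 ± 2.84), AZIN1 (76.4 ± 4.51), OAZ2 (59.5 ± 1.88), SAT1 (46.1 ± 2.13), SRM (32.2 ± 5.72), SMOX (3.08 ± 0.746) and PAOX (0.317 ± 0.12). OAZ1 and SMS were the neighbours whose ranges of 1 SD overlapped. With R1881 at 22 h ODC1 (872 ± 35.8 CPM per kb, n = 9) and SMS (836 ± 33.5) led with overlapping ranges, ahead of AMD1 (435 ± 33.8), SAT1 (295 ± 15.4) and OAZ1 (222 ± 29.7). AZIN1 (61.4 ± 3.46), OAZ2 (57.4 ± 1.81) and SRM (50.0 ± 7.65) came next, each overlapping its neighbour, and SMOX (5.62 ± 0.953) and PAOX (0.828 ± 0.178) last. In LAPC4 vehicle at 22 h the order was OAZ1 (361 ± 49.4 CPM per kb, n = 7), ODC1 (226 ± 7.5), AZIN1 (94 ± 4.61), AMD1 (80.7 ± 4.51), OAZ2 (76 ± 1.78), SMS (32.9 ± 1.55), SRM (24 ± 3.69), SAT1 (16.8 ± 1.76), SMOX (5.73 ± 0.934) and PAOX (2.29 ± 0.363), with AMD1 and OAZ2 overlapping.

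The genes whose pattern was most like ODC1, AMD1 and SMS in both lines were found among 10606 genes with a mean of at least 5 CPM, by the lower of the Pearson correlations over the 8 group means of each line. For ODC1 they were PSMB7, a proteasome subunit (0.947), ATP6V1E1, a subunit of the vacuolar proton pump (0.93), and CLTA, a clathrin light chain (0.875). For AMD1 they were PLEKHB2 (0.959), PTPRJ (0.939) and SETD7 (0.931), and for SMS HNRNPM (0.852), TIGD2 (0.841) and TXNDC11 (0.796). The points share libraries and treatments, and the correlations are descriptions. In LAPC4 the group means ran from 560.3 to 608 CPM for ODC1 and from 55.6 to 59.2 CPM for SMS. No treatment difference of either was called there in the fit by group alone. Their LAPC4 correlations therefore rest on small differences between groups, and the genes named were picked as the highest of 10606.

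Of 34 further genes around the pathway, 28 were tested in VCaP and 27 in LAPC4. In VCaP at 22 h R1881 raised 12 and lowered 8 of the 28, beside 37.4% of all genes called higher and 40% called lower, with a median log2 fold change of 0.088 beside -0.034 over all genes. Among paralogues of members OAZ3, an antizyme best known from testis, rose by 1.39 ± 0.082 at 22 h, but was called lower with R1881 at 8 h. The antizyme inhibitor AZIN2 fell by 0.76 ± 0.14 at 22 h, at a low level (2.46 CPM with DMSO). In arginine and ornithine supply 2 of 7 rose and 3 fell. ARG2, the mitochondrial arginase that yields ornithine, fell by 1.79 ± 0.043, from a mean of 185 to 53.6 CPM, and stood at 185 CPM with 2 µM darolutamide. GATM, which uses arginine for creatine synthesis, fell by 0.76 ± 0.22 at under 1 CPM. At 8 h GATM was instead called higher with R1881, at a mean of 3.07 CPM against 0.884 CPM with DMSO. Of 4 genes of S-adenosylmethionine supply 0 rose and 2 fell at 22 h, MAT1A by 1.35 ± 0.14 and AHCY by 0.27 ± 0.042.

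The methionine salvage enzymes, which recycle the methylthioadenosine left by SRM and SMS, moved in both directions in VCaP, 3 of 5 higher and 1 lower. APIP rose by 1.15 ± 0.053 and ENOPH1 by 0.72 ± 0.043, while MTAP, the first enzyme of the route, fell by 0.85 ± 0.047, from a mean of 46.6 to 25.9 CPM. All 4 genes of hypusine formation, in which spermidine is used to modify the translation factor eIF5A, rose (beside the same 37.4% of all genes). The rises were up to 0.75 ± 0.30 (DOHH, at a low level of 1.05 CPM with DMSO) and 0.56 ± 0.098 (EIF5A2). With 2 µM darolutamide at 22 h EIF5A2, EIF5A and DOHH were still called above DMSO, 3 of the 4 beside 59% of all genes. Against R1881, EIF5A was higher and DHPS lower with 2 µM. At 8 h R1881 raised EIF5A2 and lowered EIF5A. Of 5 transporters 2 rose and 1 fell with R1881 at 22 h. SLC18B1, a vesicular polyamine transporter, fell by 3.75 ± 0.11, from 6.51 to 0.47 CPM. SLC22A3, an organic cation transporter, rose by 1.07 ± 0.045, from 32.5 to 68.4 CPM. Over the whole list, R1881 raised 9 and lowered 13 at 8 h, beside 32.8% and 34.1% of all genes, and 2 µM darolutamide against R1881 raised 9 and lowered 11 at 22 h, beside 36.1% and 30.8%. AOC1, a further amine oxidase, did not pass the read filter in either line.

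In LAPC4 at 22 h 5 of the 27 tested pathway genes rose with R1881 and 4 fell, beside 6.83% of all genes called higher and 6.44% called lower, with a median of 0.044 beside 0.0067 over all genes. SLC7A1, an importer of arginine, rose by 0.69 ± 0.052, from 14.2 to 22.8 CPM, and OAT, which converts ornithine, fell by 0.41 ± 0.043. AHCY rose by 0.24 ± 0.057 and MAT2B, a regulatory subunit of S-adenosylmethionine synthesis, fell by 0.12 ± 0.030. MTAP rose by 0.14 ± 0.047, ENOPH1 by 0.12 ± 0.036 and EIF5A2 by 0.35 ± 0.090, and the transporter ATP13A4 fell by 1.17 ± 0.11. Of the 6 genes called in both lines, ENOPH1 and EIF5A2 rose in both. SLC7A1 (-0.11 ± 0.038 in VCaP), OAT (0.20 ± 0.053), AHCY and MTAP had opposite signs, with differences between the lines (VCaP minus LAPC4) of -0.85 ± 0.058, 0.55 ± 0.072, -0.57 ± 0.064 and -1.05 ± 0.073. The adjusted p of these 4 differences were 8.019e-26, 4.703e-11, 1.019e-13 and 2.459e-25 (edgeR). Alternative fits were made for the members only, so the calls of pathway genes in either line were not checked under them. Within treatment and time, MTAP was called lower in LAPC4 controls numbered 6 and above than in those numbered 1 to 5. Of the 27 pathway genes 8 were called in that comparison, beside 20.5% of all genes. Its part in the R1881 differences of these genes was not tested.

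**Figure D5:**
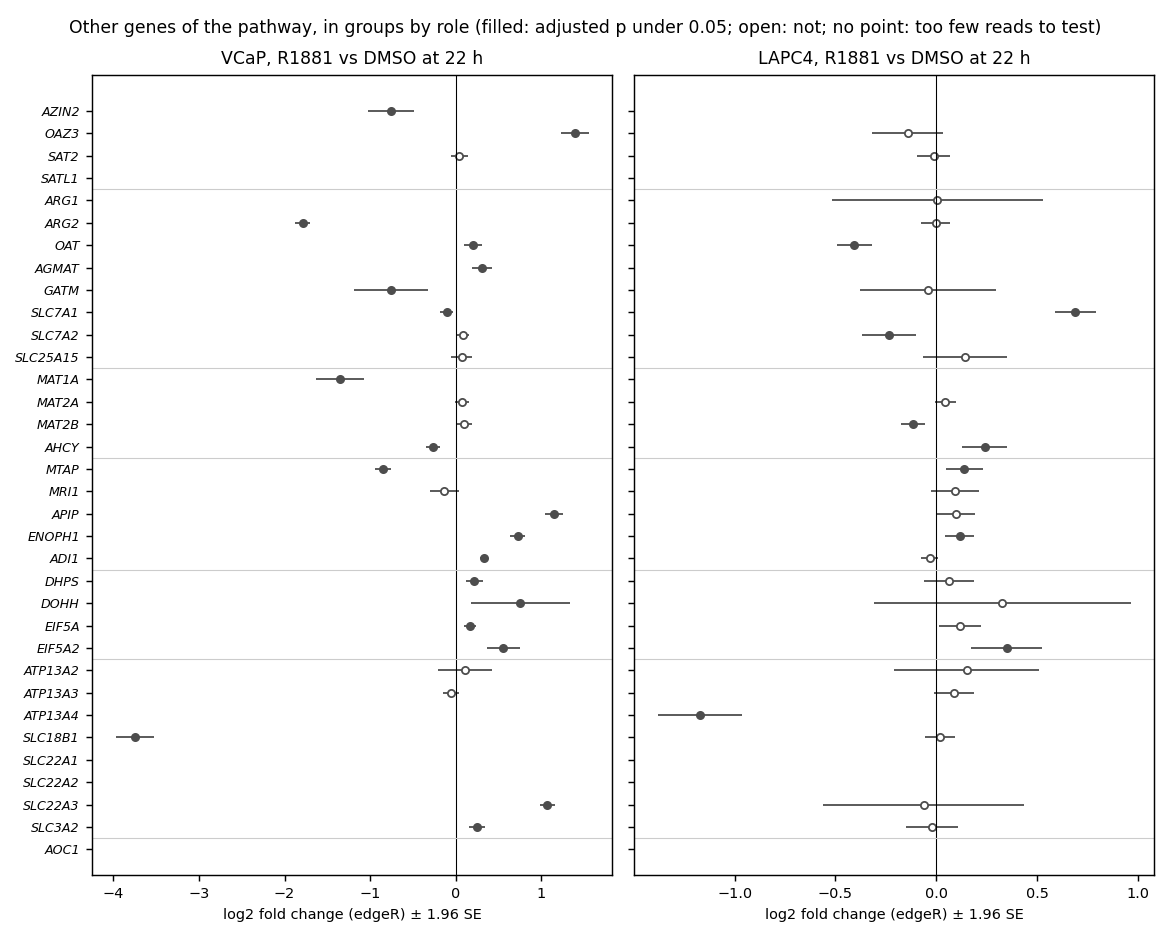
Log2 fold changes of the further pathway genes for R1881 against DMSO at 22 h in VCaP and LAPC4, with approximate 95% intervals and different x axes; filled points are called, and genes without a point did not pass the read filter. SLC18B1 (-3.75 ± 0.11) was lowest in VCaP, and SLC7A1 (0.69 ± 0.052) was highest in LAPC4.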

How the data were processed

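RNA-seq libraries (TruSeq Stranded mRNA, HiSeq2500) were aligned by the authors to GRCh38 with STAR and counted per gene with featureCounts; the deposited values are raw counts per gene. The methods state 5 biological replicates per condition, where the groups here hold 4 to 10 libraries, all of them used. The annotation, strand setting and treatment of reads that map to several places are not given in the sources used here, so genes with pseudogene copies could gain or lose reads. Symbols were matched to GENCODE 44 for position, transcript length and GC content, and to RefSeq for promoters.

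From these counts, genes that reached 10 reads in 4 or more libraries of their line were tested with edgeR 4.0.16 (R 4.3.3), TMM scaling and the quasi-likelihood test, over all 8 groups of a line, or 16 groups for differences between lines. SE was taken as the log2 fold change over the root of F. Libraries held 12188455 to 25201678 reads, and precision rests on replicate spread. Alternatives were RLE scaling, total counts, DESeq2 1.42.0, other filters, subsets of samples, a replicate block and a GC-slope covariate, for which 83.6% (VCaP) and 83.2% (LAPC4) of tested genes had a GC value. Tests were tried on simulated counts first. The text names every member and, of a fixed pathway list, the 2 called genes per group with the largest R1881 change at 22 h in each line and those called in both lines. The members, lists and tests were chosen with earlier results of these data known.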

Additional observations from a re-analysis of the deposited data

Results flagged for a closer look

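Of 160 groups of libraries checked (10 genes in 16 groups), 5 had 1 library far from the rest by Dixon's test, and chance alone marks about 1 in 20 groups. ODC1 was 324 CPM in replicate 3 of VCaP with 2 µM darolutamide at 8 h, where the next library held 355 CPM. AMD1 was 1210 CPM in replicate 1 of VCaP with 500 nM darolutamide at 22 h, where the next held 1320 CPM. SRM was 31.7 CPM in replicate 1 of VCaP with 500 nM at 8 h, next to 39.6 CPM. SMS was 61.7 CPM in replicate 6 of LAPC4 DMSO at 8 h, next to 58.1 CPM, and AZIN1 was 244 CPM in replicate 6 of VCaP DMSO at 8 h, next to 265 CPM.

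The R1881 effect differed between 22 h and 8 h in VCaP, by edgeR's interaction test, by 1.72 (log2) for ODC1, 1.54 for SAT1, 0.91 for SRM, 0.68 for PAOX, 0.461 for SMS, 0.332 for OAZ1, 0.219 for AMD1, -0.321 for OAZ2, -0.424 for AZIN1 and -1.26 for SMOX, and in LAPC4 by -0.118 for OAZ2. It differed between the lines (VCaP minus LAPC4) at 22 h by 3.07 for ODC1, 2.75 for SAT1, 2.47 for SMS, 1.07 for PAOX, 0.474 for AMD1, 0.447 for SMOX, 0.383 for OAZ1 and -0.384 for AZIN1. At 8 h it differed by 2.11 for SMS, 2.08 for SMOX, 1.32 for ODC1, 1.04 for SAT1, 0.728 for PAOX, 0.257 for AMD1 and 0.19 for OAZ2. Of all tested genes, 60.4% were called for the time difference in VCaP and 3.21% in LAPC4. Between the lines 68.5% were called at 22 h and 58.5% at 8 h. Calls lost under some alternatives include PAOX over time in VCaP, OAZ2 in LAPC4, and SMOX and OAZ1 between the lines at 22 h.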

How the results depend on the processing

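Each log2 fold change of a member was recomputed under 12 kinds of alternative, 5580 values in all. Of these, 5395 kept their direction and side of the threshold, 84 lost the call, 97 gained it and 4 reversed. With RLE scaling, DESeq2 and edgeR's own filter, 280 of 280 values each kept both. The 4 reversals were AZIN1 in VCaP at 8 h with total counts (-0.036 for R1881 against DMSO and 0.091 for 2 µM against R1881), and, with the GC covariate in LAPC4, OAZ1 for R1881 against DMSO at 22 h (-0.070) and SRM for higher-numbered against lower-numbered controls (-0.092). The cause was not tested.

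In LAPC4 the number of members called moved by over 1.5 times under several settings. The counts here and in the next paragraphs are given without the share of all genes called under the same setting. A change in them therefore cannot be read as particular to the members. With the GC covariate it was 7 for R1881 against DMSO, 6 for 2 µM and 4 for 500 nM against R1881, 1 between doses and 1 for 2 µM against DMSO at 22 h, 1 for 2 µM against R1881 at 8 h, 4 for the time difference of the R1881 effect, 2 for vehicle over time and 4 for higher-numbered against lower-numbered controls. With control replicates 6 and above alone it was 0 for R1881 against DMSO at 22 h, 1 for 500 nM against R1881 at 22 h and 0 for the time difference, and with replicates 1 to 5 alone 0 for R1881 against DMSO at 8 h. With no filter it was 0 for the time difference, and with total counts 2 for vehicle over time.

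Leaving out 1 replicate number at a time gave, in LAPC4, 2 to 3 members for R1881 against DMSO and for 2 µM against R1881 at 22 h, 1 to 2 for 500 nM against R1881 at 22 h, 0 to 1 for the time difference and 1 to 3 for vehicle over time. In VCaP it gave 9 to 9 and 7 to 9 for R1881 against DMSO at 22 h and 8 h, 8 to 9 and 6 to 7 for 2 µM against R1881, and 9 to 10 for the time difference.

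Replicate numbers recur across groups, and no source says what they share. Taken as distances from the group mean, libraries with one number correlated at a mean r of -0.0122 in VCaP (over 0.1 in 56 of 149 pairs) and 0.106 in LAPC4 (79 of 161 pairs), beside 0.00155 and -0.0138 for libraries with other numbers. The fit without the block was kept because not every pair passed 0.1, a rule that 1 low pair is enough to fail. The pairs ran from -0.838 to 0.848 in LAPC4, so the rule cannot decide whether the numbers pair these libraries. That is unsettled, and the p-values of the main fit take no account of a possible pairing. With a replicate block the members called were 3 in place of 5 for 500 nM against R1881 at 8 h in VCaP and 5 in place of 2 for 2 µM against R1881 at 22 h in LAPC4. The calls gained there were SRM (-0.36), AZIN1 (-0.11) and SMOX (-0.28), and the block also called SRM for R1881 against DMSO (0.38, adjusted p = 0.006313, edgeR) and OAZ2 for 500 nM against R1881 (0.10) at 22 h in LAPC4. With the block and the GC covariate together LAPC4 had 5 for R1881 against DMSO, 8 for 2 µM and 6 for 500 nM against R1881 and 2 for 2 µM against DMSO at 22 h, 1 for 2 µM and 1 for 500 nM against R1881 and 2 for 2 µM against DMSO at 8 h, 2 for the time difference and 2 for vehicle over time. Depth limits PAOX most, with 6 to 48 reads per VCaP library.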
